A study of Homo sapiens with 36 samples.

Results

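The early transcriptional response to E2F1 was measured in U2OS ER-HA-E2F1 cells, a human osteosarcoma line that stably carries E2F1 fused to an HA tag and the ligand-binding part of the estrogen receptor. The comparison takes the 12 arrays of cells transfected with a negative control siRNA, of 36 arrays in all. Of these, 6 were hybridised with RNA taken 4 h after 4-hydroxytamoxifen (OHT) was added (3 replicates with Sigma-Aldrich negative control siRNA and 3 with Dharmacon negative control siRNA). The other 6 had RNA taken before OHT, at 0 h, from cells with the same siRNAs (3 replicates each). All cells had been starved of serum for 24 h, beginning 18 h after transfection, and OHT was given at 80 nM in fresh serum-free medium. The fusion came from a retrovirus, the line was selected for it, so the cells of both times carry it beside their own E2F1 gene. The 4 h cells differ from the 0 h cells in OHT, in the medium change and in 4 h more without serum, and the effects of these and of E2F1 itself cannot be told apart in this comparison. The remaining 24 arrays held the same control siRNAs at 8 h and cells with Ambion or Dharmacon siRNA against NFYB at 0, 4 and 8 h.

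E2F1 is a DNA-binding factor that pairs with a DP protein and is held inactive by the retinoblastoma (RB1) family in resting cells. Once released, E2Fs switch on cyclin E, DNA replication enzymes and, for E2F1 in particular, genes of apoptosis such as APAF1 and TP73. In the fusion used here the estrogen receptor part keeps E2F1 out of the nucleus until OHT binds it. NF-Y, a complex of NFYA, NFYB and NFYC, binds the CCAAT sequence found in front of many cell cycle genes.

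Expression values are MAS5 signals, a linear brightness summarised per probe set (a group of probes for 1 transcript), and changes are given as log2 of the signal at 4 h minus log2 of the signal at 0 h. A change was called at an adjusted p under 0.05 (limma, Benjamini-Hochberg over 22215 probe sets). Arrays of 1 condition correlated at 0.984 to 0.989, arrays of the other control siRNA at the same time at 0.968 to 0.977, and 4 h arrays with 0 h arrays at 0.880 to 0.909, all over the log2 signals of the brighter 60% of probe sets. In bulk RNA, fewer cells of a kind and less RNA per cell cannot be told apart. The first principal component of the 12 arrays (70.5% of the variance) separated 4 h from 0 h, and the second (11.98%) separated the control siRNAs. Replicates are biological by their labels, which do not say whether replicate numbers pair cultures, and no scan date or batch was known. The median change over all probe sets was -0.11 (log2), so modest decreases are given beside this shift.

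The genes that mark activated E2F1 in this system rose on every array. CCNE1, which encodes cyclin E1, the partner that drives CDK2 at the start of S phase, had signals of 8518, 7543 and 6919 at 4 h and 1174, 1021 and 1208 at 0 h with the Sigma-Aldrich siRNA. With the Dharmacon siRNA its signals were 7736, 7664 and 7256 at 4 h and 1164, 1059 and 1183 at 0 h. The groups lay far apart, and CCNE1 was 6.70-fold higher at 4 h (log2 change 2.74 ± 0.09 SE, adjusted p = 5.09e-25). CDC25A encodes the phosphatase that removes inhibitory phosphates from CDK2. Its signals with the Sigma-Aldrich siRNA were 1202, 1297 and 1262 at 4 h and 295.1, 241.3 and 242.0 at 0 h, and with the Dharmacon siRNA 1830, 1599 and 1537 at 4 h and 482.2, 395.4 and 405.6 at 0 h. Cells with the Dharmacon siRNA were higher at both times, and within each siRNA all 4 h arrays exceeded all 0 h arrays. The pooled change of CDC25A was 4.33-fold (2.12 ± 0.16 SE, adjusted p = 5.06e-14), and its second probe set rose by 1.58 (log2).

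**Figure D1:**
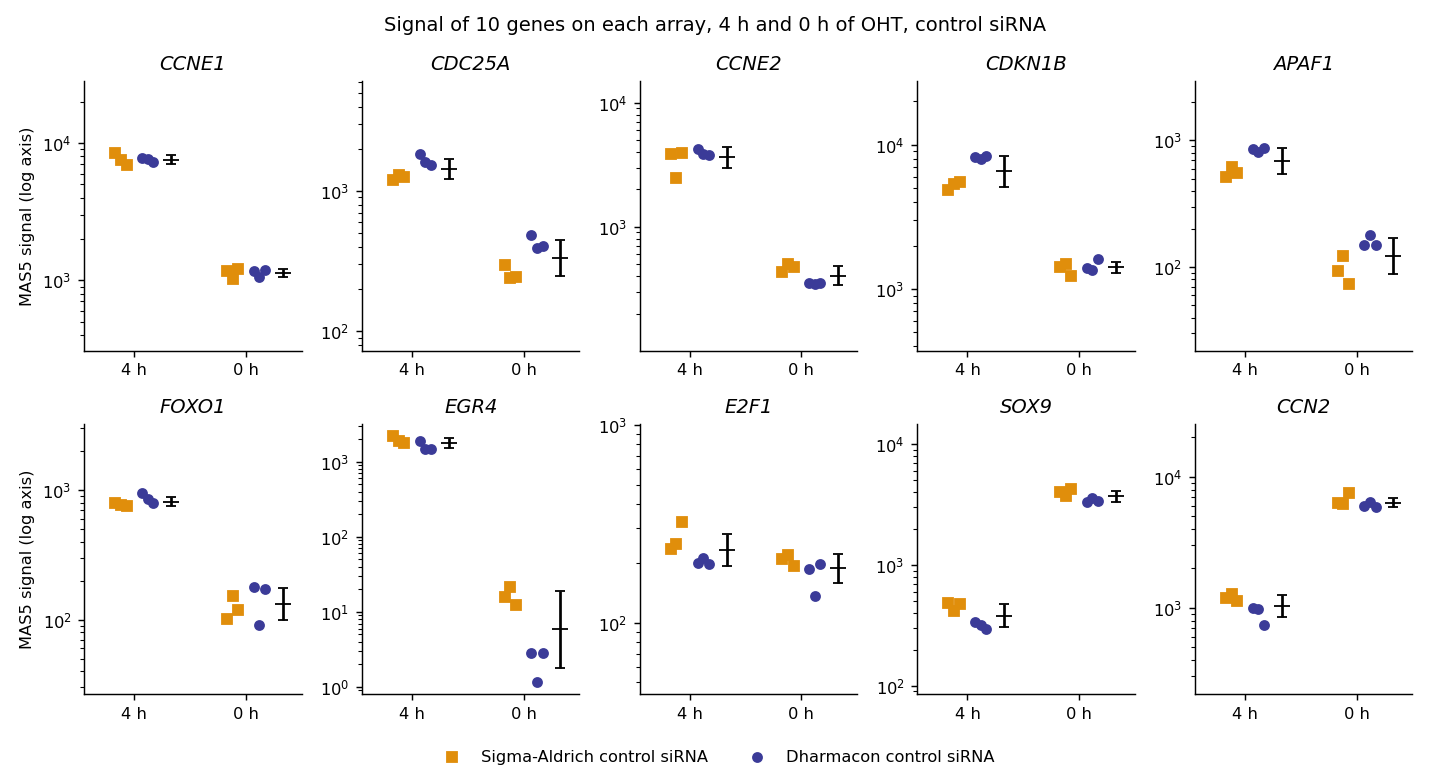
Each point is the MAS5 signal (log axis) of 1 array, with 4 h left of 0 h, squares for Sigma-Aldrich and circles for Dharmacon control siRNA, and bars for the mean ± SD of the 6 log2 values. CCNE1, CDC25A, CCNE2, CDKN1B, APAF1, FOXO1 and EGR4 lie higher at 4 h with no overlap, SOX9 and CCN2 lie lower with no overlap, and E2F1 overlaps between the times.

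The E2F1 gene itself gave overlapping groups. Its brightest probe set read 198 to 322 (median 225) at 4 h and 137 to 219 (median 195) at 0 h, a change of 0.31 ± 0.14 (SE) that was not called (adjusted p = 0.072). It was called after quantile normalization (adjusted p = 0.0247), after median ratio scaling (0.0146) and under 3 other alternatives that kept all arrays. A second probe set changed by 0.12 (adjusted p = 0.55). Whether these probe sets read the transgene as well as the endogenous gene was not tested.

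CDC25A and E2F2 belong to the 6 of 70 rising genes named here, among those with a promoter in the RefSeq table (GRCh38.p14), whose window from 250 bases before to 50 bases after the start was counted as holding an E2F motif. This count left out some genes, such as HEY1, that the 70 does not exclude. The 6 is therefore a minimum, and the genes left out cannot be read as lacking the motif. The motif was spelled TTTCGCGC or TTTGGCGC and searched on both strands, and DCK, PDGFA, POLE and TFDP1 are the other genes of this set. The stretches below show where the motif lies (capitals) in the 5 genes that have it before the start, on the strand of the gene and upstream of the start site.
CDC25A (chr3:48188418-48188497, minus strand, motif from base -44): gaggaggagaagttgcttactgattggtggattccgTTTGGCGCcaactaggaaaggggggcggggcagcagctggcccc
E2F2 (chr1:23531234-23531311, minus strand, motif from base -42): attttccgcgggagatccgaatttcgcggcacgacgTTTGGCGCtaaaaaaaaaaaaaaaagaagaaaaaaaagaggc
PDGFA (chr7:520227-520286, minus strand, motif from base -24): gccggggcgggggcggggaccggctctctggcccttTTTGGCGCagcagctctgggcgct
POLE (chr12:132687343-132687396, minus strand, motif from base -18, other strand): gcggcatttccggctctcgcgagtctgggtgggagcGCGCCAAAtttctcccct
TFDP1 (chr13:113584597-113584676, plus strand, motif from base -120, other strand): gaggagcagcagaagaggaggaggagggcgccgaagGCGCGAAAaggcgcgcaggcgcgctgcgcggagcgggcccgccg
Among all 27305 RefSeq promoters 1.18% held this motif, and among the 9563 of genes on the array 1.83% did. The share was 2.39% for genes called higher at 4 h (39 of 1633), 1.97% for genes called lower (55 of 2797) and 1.58% for genes not called (81 of 5133). For genes higher by at least 4-fold it was 3.48%, which is 8 of 230 promoters. The CCAAT motif, in either orientation, was in 35.2% of promoters called higher, 40.8% of those called lower and 36.04% of those not called. These shares describe letters in a short window and no binding was measured.

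The response at 4 h was broad. Of 22215 probe sets, 3574 were called higher (16.1%) and 5166 lower (23.3%), which named 2215 and 3562 genes, 27 of them in both directions through different probe sets. Increases were larger than decreases: 1713 probe sets rose and 910 fell by at least 2-fold, 534 rose and 125 fell by at least 4-fold, and 163 rose and 15 fell by at least 8-fold. Of the rising ones, 260 of the 534 and 92 of the 163 had a mean 0 h signal under 50, where the size of a rise is uncertain. Of the called probe sets 42.2% changed by less than 1.5-fold. In the brighter 60% by mean signal, 7749 of 13329 were called, against 991 of 8886 dimmer ones. Taking 1 probe set for each gene, the brightest, 17.0% of 11963 genes were called higher and 27.8% lower, and these shares are the background for the gene groups below.

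**Figure D2:**
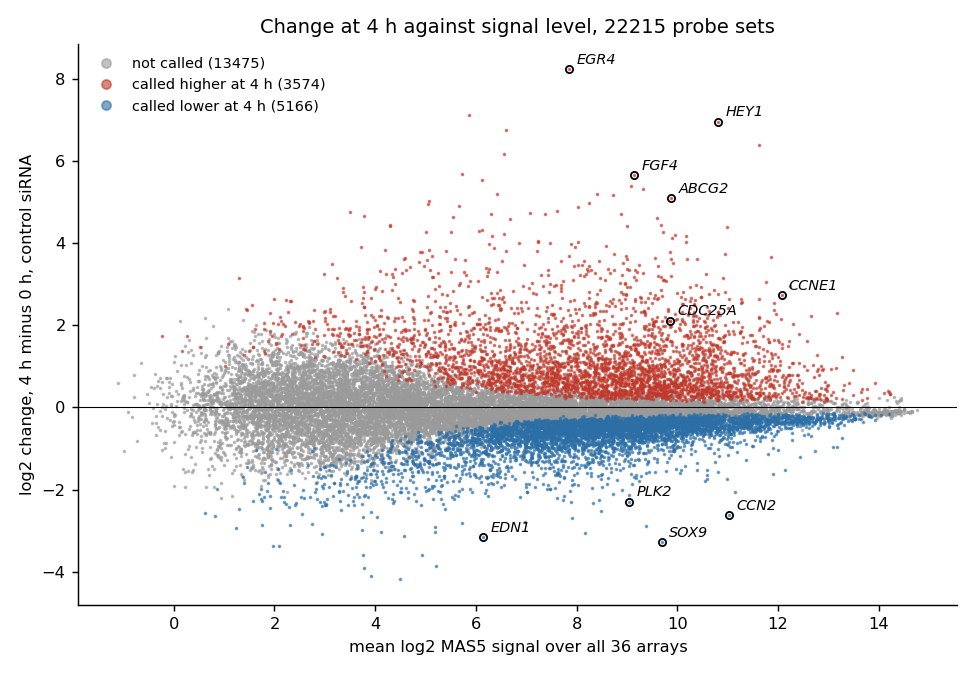
The log2 change at 4 h (vertical) is plotted against the mean log2 signal over all 36 arrays (horizontal), 1 point per probe set, red for called higher, blue for called lower and grey for not called. Increases reach beyond 8 (log2) and decreases mostly stay above -4, while the many small called decreases lie at high signal.

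The greatest increases belonged to transcription factors, signaling proteins and a transporter, most of them with 0 h signals below the array medians of 111 to 120. EGR4, a zinc finger factor of the EGR family, read 2170, 1896 and 1800 at 4 h and 15.9, 21.4 and 12.4 at 0 h with the Sigma-Aldrich siRNA. With the Dharmacon siRNA it read 1894, 1470 and 1474 at 4 h and 2.81, 1.18 and 2.84 at 0 h. Its log2 change of 8.24 ± 0.43 (SE) was the largest of the brighter 60% of probe sets and became 6.20 when 16 was added to each signal, and its second probe set, with signals of 634 at 4 h and 39.9 at 0 h, rose by 4.01, so the size of this change is uncertain. HEY1, a Notch-induced repressor, averaged 9415 ± 798 at 4 h and 92.3 ± 52.8 at 0 h (SD, n = 6 each), a change of 6.97 that was 6.63 with the offset and 6.39 on its brighter probe set. The orphan nuclear receptors NR4A3 and NR4A2 rose by 7.12 and 5.39, and 4.26 and 4.97 with the offset. A dimmer NR4A3 probe set rose by 3.55.

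Other increases were as steep. LHX2, a LIM homeobox factor, rose by 6.18 (3.84 with the offset), STX11, a syntaxin, by 5.68 (3.50) and KCNA3, a voltage-gated potassium channel, by 5.54 (3.42). Their 0 h signals were all under 21, and a second LHX2 probe set rose by 3.08. FGF4, a growth factor of early development, had a higher floor: its signals lay between 1914 and 2107 at 4 h and between 24.5 and 61.5 at 0 h, a 50.7-fold difference. DRD5, a dopamine receptor, rose 36.9-fold and MINAR1 36.7-fold (log2 changes of 4.61 and 3.55 with the offset). ABCG2, a drug efflux transporter, averaged 2450 ± 170 at 4 h and 75.6 ± 27.9 at 0 h (34.4-fold), and TM6SF1, a membrane protein, rose 31.5-fold. All 12 of these genes had every 4 h array above every 0 h array. They were picked for large changes, and 2472 of all 22215 probe sets were separated in this way.

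Among the brighter 60% of probe sets the largest decrease was that of SOX9, a chondrogenic transcription factor, which read 487, 417 and 476 at 4 h and 4052, 3733 and 4256 at 0 h with the Sigma-Aldrich siRNA. With the Dharmacon siRNA its signals were 337, 321 and 294 at 4 h and 3334, 3569 and 3354 at 0 h, and the pooled fall was 9.70-fold (log2 change -3.28 ± 0.16 SE, adjusted p = 2.27e-19). CCN2, the matrix-associated connective tissue growth factor, averaged 1051 ± 187 at 4 h and 6392 ± 577 at 0 h (6.15-fold lower). EDN1, the vasoconstrictor endothelin-1, fell 8.98-fold and TNFRSF11B, the RANKL decoy osteoprotegerin, 8.41-fold. NEDD9, an adhesion scaffold, fell 6.91-fold, ZMYND8, a chromatin reader, 5.05-fold, and PLK2, a polo-like kinase, 4.90-fold. A dimmer NEDD9 probe set changed less, by -1.31. The dimmer probe sets of ZMYND8 changed by -2.29, -1.96 and -1.13, the last of these not called.

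The remaining 5 of these genes fell by similar factors. MED7, a Mediator subunit, was 5.73-fold lower, the sialyltransferase ST6GALNAC5 4.81-fold, INHBA, a subunit of activin A, 4.75-fold and RGS4, a brake on G protein signaling, 4.60-fold. Dimmer probe sets changed by -1.14 (log2) for INHBA and by -3.02 and -1.79 for RGS4. TXNRD2, the mitochondrial thioredoxin reductase, fell by 2.81 (log2) by its dim probe set (signal 29.4 at 4 h and 185 at 0 h) but by 0.66 (log2) on its brighter one. All 12 had every 4 h array below every 0 h array. These too were picked for large changes, and 2774 of all 22215 probe sets were separated in this way.

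**Figure D3:**
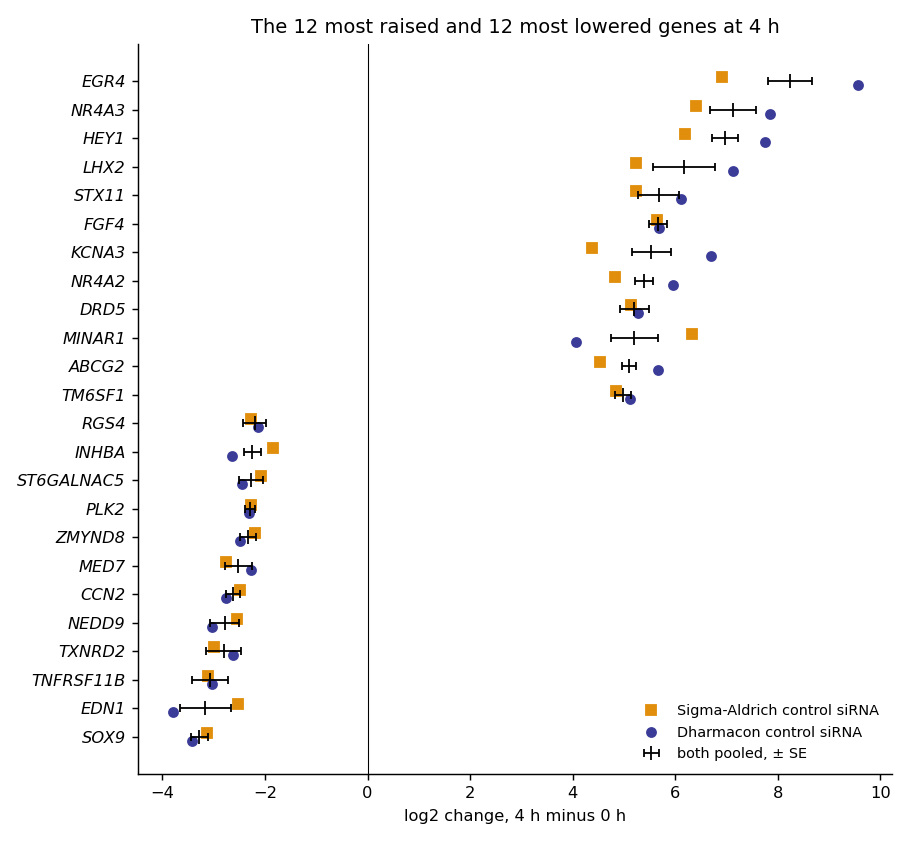
Log2 change at 4 h (horizontal) of the 12 most raised and 12 most lowered genes among the brighter 60% of probe sets (rows), with squares for the Sigma-Aldrich and circles for the Dharmacon control siRNA and black ticks with bars for the pooled change ± SE. The choice of these genes required 1 direction with both siRNAs, and the siRNAs lie furthest apart for EGR4, KCNA3 and MINAR1.

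The engine of S phase entry moved in part. Of 12 measured G1/S cyclins, kinases and CDC25 phosphatases 4 were called higher and 2 lower. CCNE2, the second cyclin E, averaged 3674 ± 604 at 4 h and 410 ± 69.5 at 0 h (8.95-fold higher, adjusted p = 4.3e-22), and CCND3, cyclin D3, was 2.95-fold higher. CCNA2, the S phase cyclin A2, fell by 0.52 and CDC25C, the mitotic CDC25, by 0.71. CCND1 (-0.19), CDK2 (-0.03) and 4 further members were not called.

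Inhibitors of the same kinases rose together with cyclin E. Of 7 CDK inhibitors 4 were called higher and 1 lower. CDKN1B, the p27 inhibitor of CDK2, read 4887, 5341 and 5537 at 4 h and 1416, 1484 and 1232 at 0 h with the Sigma-Aldrich siRNA, and 8186, 7993 and 8319 at 4 h and 1391, 1356 and 1613 at 0 h with the Dharmacon siRNA. Its pooled increase was 4.64-fold, with the Dharmacon arrays higher at 4 h and the siRNAs overlapping at 0 h. CDKN1C (p57) rose 6.43-fold, CDKN1A (p21) 2.51-fold and CDKN2D (p19) 2.53-fold, while CDKN3, a phosphatase that acts on CDKs, fell by 0.44.

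In the E2F family itself 4 of 12 members were called higher and 1 lower. E2F8, an atypical repressor E2F, averaged 1215 ± 115 at 4 h and 340 ± 54.1 at 0 h (3.60-fold higher). The activator E2F2 rose 3.07-fold at low signals (88.5 at 4 h and 28.7 at 0 h), and TFDP1, the main DP partner, rose 1.65-fold. The pocket protein RB1 rose by 0.49, a change that was not called with the Sigma-Aldrich siRNA alone (0.35, adjusted p = 0.117). TFDP2 fell by 0.47.

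Replication genes split. Of 24 origin licensing and firing genes 7 were called higher and 13 lower, with a median change of -0.27 beside -0.14 over all genes. DBF4, the activating subunit of the CDC7 kinase, stood apart with signals of 6106 ± 481 at 4 h and 1455 ± 154 at 0 h (4.21-fold higher), while CDC7, the kinase it activates, fell by 0.58 (log2). The helicase subunit MCM4 rose by 0.42, and the origin recognition subunits ORC3, ORC4 and ORC1 fell by 0.72, 0.80 and 0.88. TOPBP1, a scaffold of origin firing and of checkpoint signaling, changed by 0.16 and was not called.

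Of 33 fork and nucleotide synthesis genes 9 rose and 13 fell, a balance that turned to 12 and 7 when arrays were scaled to a median ratio of 1. The increases held precursor enzymes: DCK, deoxycytidine kinase, was 3.65-fold higher (3111 ± 319 at 4 h and 861 ± 172 at 0 h), and RRM2, the regulated subunit of ribonucleotide reductase, was 2.34-fold higher (13365 ± 718 and 5718 ± 567). A second RRM2 probe set of similar brightness rose 4.90-fold (15666 and 3318), and its change differed between the siRNAs (1.94 with Sigma-Aldrich and 2.64 with Dharmacon, adjusted p = 0.00155). POLE, the leading strand polymerase, rose 2.03-fold, with all 4 h arrays above all 0 h arrays. RFC4, a clamp loader subunit, rose by 0.47 and PRIM1, the primase, fell by 0.54.

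Mitotic genes were mostly lower at 4 h. Of 37 measured members 24 fell and 3 rose, and the median change was -0.36. TTK, a spindle checkpoint kinase, averaged 405 ± 20.03 at 4 h and 900 ± 83.5 at 0 h (2.22-fold lower), BUB1 fell 1.56-fold and CENPF, a kinetochore protein, by 0.63 (log2). CCNB2, cyclin B2, fell by 0.33, and CDK1, its kinase, changed by 0.23 without passing the test (adjusted p = 0.119). A second CDK1 probe set was called higher (0.21, adjusted p = 0.0401). PRC1, a midzone protein, and MKI67, the Ki-67 antigen, rose by 0.80 and 0.58. With the arrays scaled to a median ratio of 1, 21 fell and 6 rose.

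Of 29 DNA damage checkpoint and repair genes 14 fell and 3 rose, with a median change of -0.23. ATR, the kinase that senses stalled forks, was 1.83-fold lower (393 ± 35.3 at 4 h and 723 ± 88.5 at 0 h), RAD50, of the break sensor complex, 1.56-fold, BLM, a helicase, by 0.63 (log2) and BRCA1 1.42-fold. MSH6, a mismatch repair protein, rose 1.74-fold.

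The subunits of NF-Y did not move as 1 group. NFYB read 396, 459 and 389 at 4 h and 161, 199 and 193 at 0 h with the Sigma-Aldrich siRNA, and 445, 491 and 448 at 4 h and 203, 190 and 177 at 0 h with the Dharmacon siRNA. All 4 h arrays were above all 0 h arrays, the increase was 2.34-fold (1.23 ± 0.19 SE, adjusted p = 1.58e-06), and the other probe sets of NFYB rose by 1.19 and 1.44. NFYA fell by 0.33 and NFYC by 0.27, with overlapping groups. The fall of NFYC was not called with the Sigma-Aldrich siRNA alone (adjusted p = 0.0762) or after median ratio scaling (-0.17, adjusted p = 0.133), nor without replicate 1, 2 or 3 (adjusted p of 0.0734 to 0.0904).

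**Figure D4:**
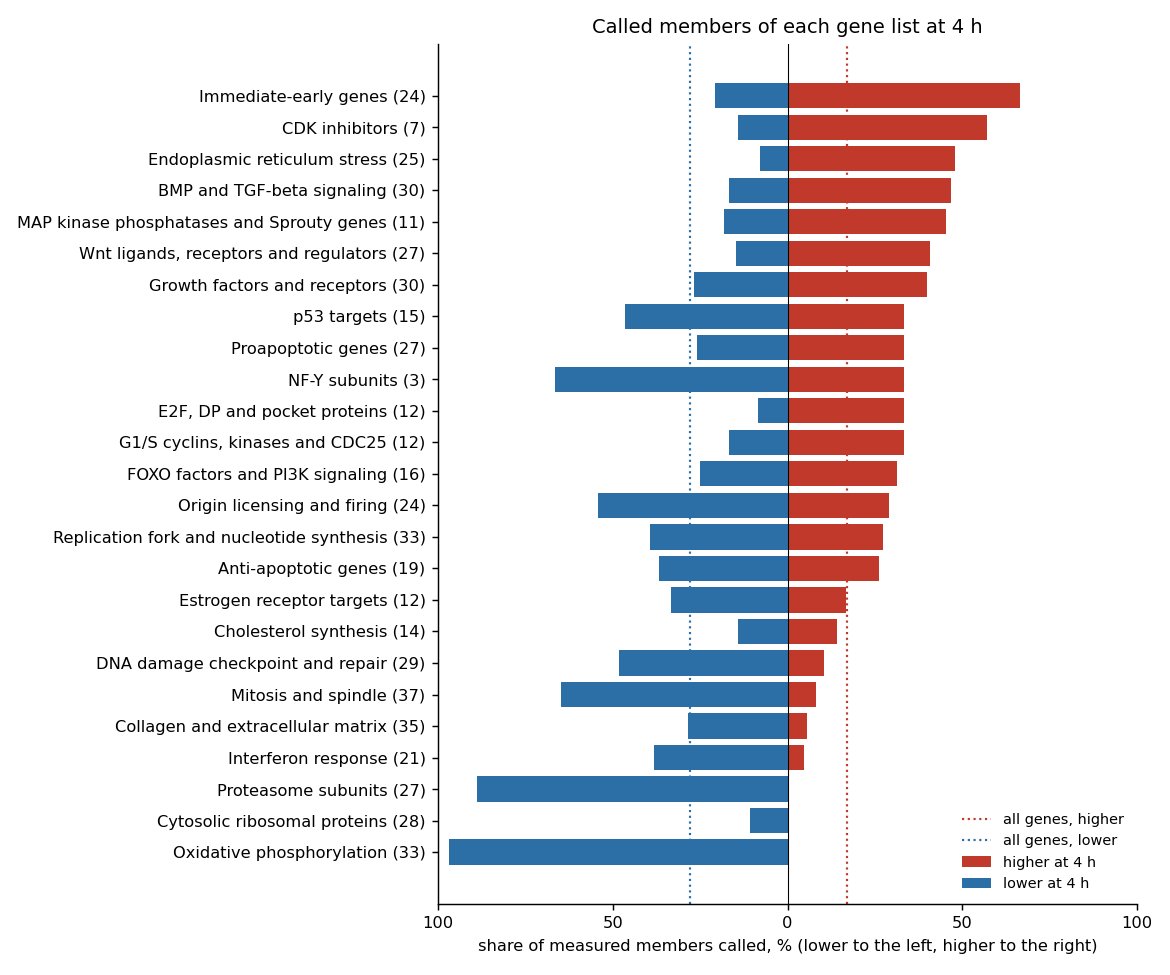
Share of the measured members (number in brackets) of each gene list that was called higher (red, to the right) or lower (blue, to the left) at 4 h, with dotted lines at the shares over all genes, 17.0% and 27.8%. Immediate-early genes reach 66.7% higher and oxidative phosphorylation genes 97.0% lower.

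Genes of apoptosis moved both ways. Among 27 proapoptotic genes 9 were called higher and 7 lower, with 10 and 5 after median ratio scaling and 9 and 4 by the methods' t-test. The share called higher was 33.3%, beside 17.0% of all genes. The share called lower was 25.9%, near the 27.8% of all genes, so falls are no particular trait of this list. APAF1, the scaffold of the apoptosome, read 511, 612 and 555 at 4 h and 93.8, 122 and 74.3 at 0 h with the Sigma-Aldrich siRNA. With the Dharmacon siRNA it read 856, 808 and 868 at 4 h and 150, 178 and 150 at 0 h, so that the siRNAs did not overlap in level at either time, with increases of 2.56 and 2.41 (log2). A dimmer APAF1 probe set rose by 1.42. MAP3K5, the stress kinase ASK1, was 11.6-fold higher (1849 ± 163 at 4 h and 160 ± 4.91 at 0 h, adjusted p = 4.12e-31). The BH3-only genes HRK and BCL2L11 (BIM) rose 10.4-fold and 4.96-fold, and TP53BP2, a p53-binding ASPP protein, 2.53-fold. SIVA1, a death receptor adaptor, rose by 0.48 with overlapping groups. TP73, the p53 relative, was 15.2-fold higher at signals of 32.9 and 3.24. Its 0 h signals of 1.06 to 11.5 lay near the floor, so the size of this rise is uncertain. Falling members were FADD and CASP8, the adaptor and initiator caspase of death receptors (2.78-fold and 2.82-fold), and the BH3-only gene PMAIP1 (3.13-fold).

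Of 19 anti-apoptotic genes 5 rose and 7 fell (26.3% and 36.8%, beside 17.0% and 27.8% of all genes). BCL2 averaged 282 ± 84.4 at 4 h and 69.0 ± 8.47 at 0 h (3.97-fold higher), BAG1, a BCL2-binding cochaperone, was 2.53-fold higher and MCL1 1.56-fold by its brightest probe set, while of its other probe sets 1 was called higher by 0.39 and 3 changed by 0.17 to 0.26 without being called. CFLAR, the FLIP inhibitor of caspase 8, fell 2.11-fold and DAD1, a subunit of the oligosaccharyl transferase, 1.48-fold. API5 (-0.01) and MALT1 (0.14) were not called. PRKCZ, an atypical protein kinase C, read 506 to 693 (median 668) at 4 h and 305 to 448 (median 372) at 0 h and rose 1.73-fold. The dim probe set that names FOLH1 alone had signals of 5.62 to 30.7 at 4 h and 4.92 to 17.6 at 0 h and was not called, and probe sets shared with FOLH1B were not read as FOLH1.

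FOXO factors drive arrest and death genes when AKT is idle, and FOXO1 and FOXO3 rose. FOXO1 had signals of 757 to 956 (median 792) at 4 h and 90.1 to 178 (median 135) at 0 h (6.23-fold higher), and FOXO3 1840 to 2335 (median 1960) at 4 h and 394 to 549 (median 476) at 0 h (4.38-fold higher). FOXO4 was dim, with signals of 13.4 to 60.5 (median 33.8) at 4 h and 42.9 to 87.1 (median 52.9) at 0 h, and its change of -0.81 was not called (adjusted p = 0.0667). The FOXO-regulating kinases PDPK1, AKT1 and SGK1 rose 2.07-fold, 1.75-fold and 2.39-fold. In all 5 of 16 genes of this list rose and 4 fell. Among 15 p53 targets 5 rose and 7 fell: PPM1D, the phosphatase that dampens p53, was 3.13-fold higher (6003 ± 406 at 4 h and 1918 ± 157 at 0 h), whereas PLK2, CCNG2, a cyclin of arrested cells (2.90-fold), XPC, a damage sensor (2.13-fold), and CCNG1 (1.26-fold) were lower.

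Immediate-early genes, which serum or stress switches on without new protein synthesis, held the highest share of increases of any list. Of 24 measured 16 were called higher (66.7%, beside 17.0% of all genes) and 5 lower, with a median change of 0.86. EGR1 averaged 11135 ± 507 at 4 h and 2369 ± 237 at 0 h (4.72-fold higher), ATF3, a stress-induced repressor, 1488 ± 235 and 163 ± 21.3 (9.12-fold), and KLF10, a TGF-beta-inducible factor, 10359 ± 1380 and 1321 ± 109 (7.80-fold). FOS and FOSB, partners of JUN in AP-1, rose 5.04-fold and 26.4-fold, FOSB at 0 h signals of 13.7 ± 5.98. CCN2 was the lowest member, and MYC fell 1.36-fold. Of the 11 MAP kinase phosphatase and Sprouty genes, which switch such signals off, 5 rose and 2 fell. DUSP2 was 12.4-fold higher (1390 ± 143 and 119 ± 44.1) and DUSP1 4.74-fold, and DUSP8, DUSP10 and SPRY2 rose by 0.84, 0.73 and 0.85. The ERK phosphatase DUSP6 fell by 1.27 at low signals, 6.90 to 29.5 at 4 h and 30.3 to 45.7 at 0 h. In this list 2 genes were called lower with the Dharmacon siRNA alone and 0 with the Sigma-Aldrich siRNA alone.

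Ligands and receptors of development moved both ways, with more called higher than lower in the BMP, Wnt and growth factor lists. Of 30 BMP and TGF-beta genes 14 were called higher and 5 lower (median 0.20), 9 and 3 of them by at least 2-fold. BMP2, a bone morphogenetic ligand, averaged 3190 ± 245 at 4 h and 195 ± 9.81 at 0 h (16.4-fold higher, adjusted p = 1.14e-34). ID4 and ID3, repressors that BMP signals induce, rose 21.1-fold and 7.72-fold, SMAD6, an inhibitory SMAD, 3.59-fold, and FST, the activin trap follistatin, 12.8-fold. INHBA, whose product follistatin binds, is among the most lowered genes above. ID1, of the same family as ID4, changed by 0.06 and was not called.

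Of 27 Wnt genes 11 rose and 4 fell, 7 and 1 of them by at least 2-fold. The receptors FZD5, FZD1 and FZD7 were 13.96-fold, 6.51-fold and 2.75-fold higher, LEF1, the nuclear end of the pathway, 4.23-fold, and the ligand WNT5A 3.79-fold. SFRP1, a secreted Wnt antagonist, read 808 to 1346 (median 1117) at 4 h and 612 to 806 (median 688) at 0 h, and its 1.60-fold increase left the lowest 4 h array just above the highest 0 h array. Among 30 growth factors and receptors 12 rose and 8 fell, 7 and 5 of them by at least 2-fold. The share that fell, 26.7%, was near the 27.8% of all genes. FGFR3 averaged 2296 ± 197 at 4 h and 118 ± 8.15 at 0 h (19.5-fold higher), VEGFC, a lymphatic growth factor, was 6.86-fold higher, FGFR2 4.32-fold, the HGF receptor MET 2.57-fold and PDGFA 2.44-fold.

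Stress genes of the endoplasmic reticulum rose without its main chaperones. Of 25 members 12 rose and 2 fell (median 0.26). CHAC1, a glutathione-degrading enzyme induced by ATF4, was 7.62-fold higher (1078 ± 94.5 and 155 ± 70.4), DDIT3 (CHOP) 4.37-fold, the cochaperone DNAJB9 3.71-fold, TRIB3, a pseudokinase, 2.45-fold and MANF, a secreted stress factor, 1.61-fold. The chaperones HSPA5 (0.09) and HSP90B1 (0.11) were not called.

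Most genes of oxidative phosphorylation and of the proteasome fell, by less than 1 on the log2 scale. Of 33 genes of oxidative phosphorylation 32 were called lower, all but COX5A, with a median change of -0.37 (COX5A changed by -0.11). NDUFA8 and NDUFS3, subunits of complex I, fell by 0.72 and 0.65, NDUFV2 by 0.46, the ATP synthase subunit ATP5F1A by 0.38 and UQCRC2 of complex III by 0.37. Of 27 proteasome subunits 24 fell (median -0.30, range -0.83 to 0.15), among them PSMD10 (-0.83), PSMB5 (-0.52), PSMD12 (-0.51), PSMC2 (-0.51) and PSMC1 (-0.48). No member of either list was called higher by limma, at an unadjusted p under 0.05 or by the methods' t-test, where the lower counts were 27 and 21. Scaled to a median ratio of 1, 27 of 33 and 16 of 27 were still lower. Of 28 ribosomal protein genes 3 fell (RPS9, RPL14 and RPL30, by 0.19 to 0.26), 17 with the Dharmacon siRNA alone and 0 with the Sigma-Aldrich siRNA alone, and RPL18 and RPL29 changed by -0.20 and -0.19 without being called. Under median ratio scaling 0 of the 28 were called, where limma at an unadjusted p under 0.05 called 10 lower in the deposited scaling and the methods' t-test 2 after adjustment.

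Of 35 collagen and matrix genes 10 fell (28.6%, near the 27.8% of all genes) and 2 rose: COL4A2 fell by 0.54, COL6A3 by 0.52, LOXL1, a collagen crosslinking oxidase, by 0.53, TIMP1, a protease inhibitor, by 0.32 and the protease MMP3 by 1.06. Of 21 interferon response genes 8 fell and 1 rose. IFIT1, IFI44, IFIT3 and IFITM3 fell by 3.12, 1.29, 1.17 and 0.36, while IRF1, a factor that interferon gamma induces, was 6.44-fold higher (1341 ± 177 and 210 ± 41.7). Of 14 cholesterol synthesis genes 2 rose and 2 fell by the brightest probe set, and 2 rose and 5 fell after quantile normalization. SQLE and IDI1 rose by 0.39 and 0.33, NSDHL and TM7SF2 fell by 0.70 and 1.06, and EBP changed by -0.18 and was not called.

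OHT is itself a ligand of estrogen receptors, and 12 genes known as estrogen receptor targets in breast cells were therefore read. Of these 2 rose and 4 fell (16.7% and 33.3%, near the 17.0% and 27.8% of all genes). Among the 4 called lower, 2 fell by at least 2-fold. MYB, also an E2F target, was 21.8-fold higher (2413 ± 469 and 110 ± 12.5) and NRIP1, a nuclear receptor corepressor, 1.52-fold, while RARA, EBAG9 and CTSD fell by 1.38, 0.68 and 0.39. The defining targets TFF1 and PGR were not called. TFF1 read 28.8 to 49.1 at 4 h and 14.2 to 37.5 at 0 h, and PGR 1.03 to 2.65 and 0.70 to 12.8. Both lay below the array medians of 111 to 120, so a missing call shows little about either gene. GREB1, another member, had a lower median at 4 h with overlapping groups. It read 47.3 to 119 (median 70.2) at 4 h and 87.9 to 279 (median 161) at 0 h.

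Markers of other cell types were dim apart from EPCAM. The summed signal of 8 leukocyte markers was 157 to 267 at 4 h and 175 to 213 at 0 h, that of 7 epithelial markers 334 to 456 and 352 to 548, and that of 6 endothelial markers 117 to 170 and 151 to 236. In limma 0 leukocyte markers were called (0 at an unadjusted p under 0.05 and 0 by the methods' t-test). PTPRC averaged 14.2 at 4 h and 17.0 at 0 h, CD3D 38.2 and 45.2, CD3E 48.3 and 35.4, MS4A1 27.6 and 23.2, LYZ 3.50 and 4.70, and CD14 2.59 and 3.41. EPCAM, above the array medians of 111 to 120, made up most of the epithelial sum (307 and 271), CLDN4 fell at signals of 13.4 and 74.0, and CDH1, KRT14 and ESRP1 were not called. Of the endothelial genes ERG was called lower (40.2 and 57.4) and CDH5, VWF, TEK and TIE1 were not. Of 9 osteoblast and mesenchymal markers VIM (16315 and 17554) and SPARC were bright and COL1A1, SPP1 and CDH11 were called lower, by 0.49, 0.84 and 0.45, but RUNX2 (23.6 and 11.7) and ALPL (75.7 and 90.7), which define osteoblasts, were low at both times.

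The response was read on separate arrays for each control siRNA. With the Sigma-Aldrich siRNA alone 7573 probe sets were called and with the Dharmacon siRNA alone 8319. Of these 6075 were called in both with 1 direction, 80.2% of the Sigma-Aldrich and 73.0% of the Dharmacon calls, and 10 in opposite directions. The changes correlated at 0.922 over the brighter 60% of probe sets and at 0.6247 over all of them, a description across probe sets that are not independent. The test of the difference called 131 probe sets (0.590%), 66 of them with the more positive change under the Sigma-Aldrich siRNA.

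Some of the steepest increases differed between the siRNAs, and the difference often lay in the 0 h signal. EGR4 rose by 6.91 with the Sigma-Aldrich and by 9.57 with the Dharmacon siRNA (difference -2.65 ± 0.53 SE, adjusted p = 0.00904), with 4 h signals that overlapped and 0 h signals that did not, as given above. ABCG2 rose by 4.54 and 5.66 (adjusted p = 1.01e-06), with 0 h signals of 108, 97.7 and 96.2 under the Sigma-Aldrich and 56.3, 45.04 and 50.5 under the Dharmacon siRNA. CDKN1B differed at 4 h instead (1.93 and 2.49, adjusted p = 0.0466). CHAC1 (2.31 and 3.55), HEY1 (6.19 and 7.75), NR4A2 (4.82 and 5.96), FST (3.23 and 4.12), VEGFC (2.42 and 3.14) and ID4 (4.10 and 4.69) rose less with the Sigma-Aldrich siRNA, and FGFR2 (2.34 and 1.88) rose more. CCNE1 rose by 2.75 and 2.73, and the difference was not called.

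**Figure D5:**
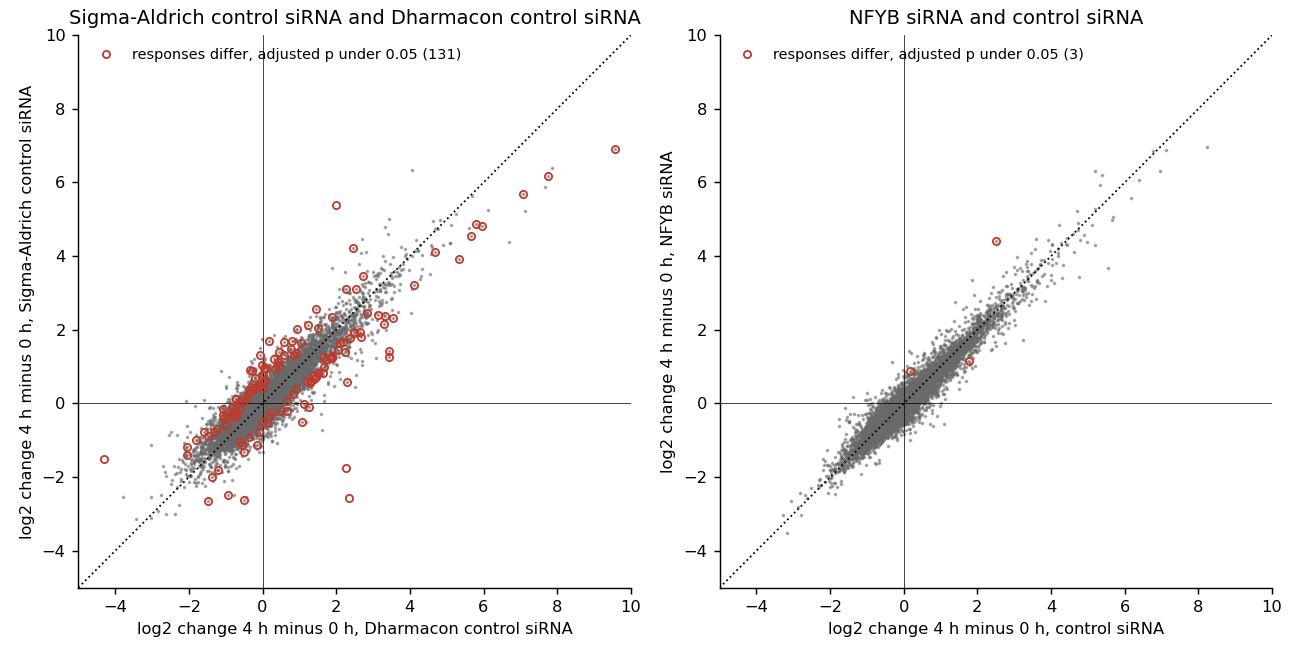
Log2 change at 4 h with the Sigma-Aldrich (vertical) against the Dharmacon (horizontal) control siRNA on the left, and in NFYB siRNA (vertical) against control siRNA cells (horizontal) on the right, over the brighter 60% of probe sets. The dotted line marks equal changes and red rings the 131 and 3 probe sets of any brightness whose changes differed in the test. The 131 are from a fit of 12 groups and the 3 from a fit of 6 groups, so these counts cannot be compared.

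Cells with NFYB siRNA, on 12 arrays of their own, gave a response of the same shape. There 15.9% of genes were called higher and 25.5% lower, beside 17.0% and 27.8% in control siRNA cells. Of the probe sets called in either arm 6928 were called in both with 1 direction, 85.3% of the NFYB siRNA and 79.3% of the control siRNA calls, and 2 in opposite directions. The changes correlated at 0.962 over the brighter 60%, again as a description across probe sets. Of the 534 probe sets that rose at least 4-fold in control siRNA cells, 488 were called higher by at least 2-fold in NFYB siRNA cells, and of the 910 that fell at least 2-fold 693 were called lower. These genes were dim before OHT there too: the median 0 h signal of the 534 was 52.7, against 114 over all probe sets, in NFYB siRNA cells.

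The test of the difference between the arms called 3 probe sets (0.0135%) in the fit of 6 groups, which pools the siRNAs of an arm. With siRNA by time as 12 groups it called 87. The 131 between the control siRNAs came from 12 groups, so the 3 and the 131 cannot be compared. MMP15, a membrane-bound protease, rose by 4.40 in NFYB siRNA cells and by 2.49 in control siRNA cells (difference 1.91 ± 0.34 SE, adjusted p = 0.0252), with a mean of 178 at 4 h in both arms and of 8.39 and 32.6 at 0 h. SLC66A2, a membrane transporter, rose by 1.16 and 1.76 (adjusted p = 0.00349), and POGLUT2, a protein glycosyltransferase, changed by 0.88 in NFYB siRNA and by 0.18 in control siRNA cells, where it was not called (difference 0.70, adjusted p = 0.0485). At an unadjusted p under 0.05 there were 1083 of 22215, a threshold that chance alone passes at a rate of 0.05. NFYB, the target of the siRNAs, averaged 113 ± 38.8 at 4 h and 66.6 ± 10.7 at 0 h in NFYB siRNA cells, and its increase there was 0.69 (log2) beside 1.23 in control siRNA cells, a difference that was not called. CCNE1 rose by 2.43 in NFYB siRNA and 2.74 in control siRNA cells, and APAF1 by 2.06 and 2.48.

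The level reached at 4 h was not always the final one. The means at 0, 4 and 8 h were 1135, 7606 and 8501 for CCNE1, 344, 1454 and 1554 for CDC25A, 187, 438 and 649 for NFYB, 128, 702 and 1067 for APAF1 and 160, 1849 and 2945 for MAP3K5. The change after 4 h (8 h minus 4 h, which shares the 4 h arrays) was called for NFYB (0.57), APAF1 (0.63) and MAP3K5 (0.68) and not for CCNE1 (0.16) or CDC25A (0.06). Others were lower at 8 h than at 4 h: CDKN1B had means of 1415, 6711 and 4812, FOXO1 of 135, 819 and 612, and DDIT3 fell by 1.31 after 4 h. EGR1 changed by 0.10 and EGR4 by -0.21 between 4 and 8 h, neither of them called.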

How the data were processed

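RNA was measured on 36 Affymetrix expression arrays, and per the labels the authors used Expression Console. The deposited values are MAS5 signal, a linear intensity that the authors had scaled, and every array had a trimmed mean of 500. No 2 arrays held identical values. Detection calls were not used here. Of 22277 probe sets 62 controls were left out, and 19064 of 22215 name 1 gene. Log2 signals entered limma 3.58.1 (R 4.3.3): 6 groups (NFYB or control siRNA at each time), a variance trend, 36.3 degrees of freedom, two-sided tests and Benjamini-Hochberg adjustment over all probe sets. The difference between control siRNAs used 12 groups of 3 arrays. The code was tested on simulated data. Folds compare mean log2 signals, and means ± SD are of signals. The number of arrays limits the precision.

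A gene in a list was read by its brightest probe set, where that names 1 gene. The text names the markers, the genes the study discusses, the 12 most raised and 12 most lowered genes of the upper 60% by signal, and from each list at most 5 members, by adjusted p. The 12 most raised and 12 most lowered were taken from called probe sets that name 1 gene and changed in 1 direction with both control siRNAs. TP73, FADD, CASP8, PMAIP1, FOS, FOSB, MYC, ORC1, DUSP6, ID1, HSPA5, HSP90B1, CCND1, CDK2, COX5A, SPARC, ALPL, TFF1, PGR, GREB1, PTPRC, FOXO4, MMP15, SLC66A2 and POGLUT2 were named after their values were seen. Members and lists were chosen with earlier results of these data known. Alternatives tried: adding 16 to each signal, quantile normalization, the upper 60% only, no variance trend, replicate blocks, other groupings, the methods' t-test (unequal variance), leaving out arrays and, chosen after seeing the data, median ratio scaling.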

Additional observations from a re-analysis of the deposited data

Results flagged for a closer look

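Some named genes had 1 array far from the other 5 of its group (its gap to the nearest other, as a share of the group's range of log2 signals, was above Dixon's 95% critical value). Chance alone gives about 1 in 20 such groups, and 24 of the 354 groups looked at were found. The gap was 0.776 for PRKCZ (506 on a Dharmacon 4 h array, 646 to 693 on the others), 0.772 for CCNE2 (2490 on a Sigma-Aldrich 4 h array, 3751 to 4232 on the others), 0.672 for HRK (811, others 1058 to 1205), 0.716 for TP53BP2 (1143, others 980 to 1024), 0.63 for CDKN2D, 0.635 for LOXL1 and 0.651 and 0.694 for the probe sets of NR4A2, all at 4 h. At 0 h it was 0.675 for E2F1 (137 on a Dharmacon array, 188 to 219 on the others), 0.714 for TFDP1, 0.691 for TTK, 0.76 for KLF10, 0.665 for SMAD6, 0.64 for DDIT3, 0.671 for RARA and 0.724 for DRD5. Dim genes gave 0.662 for NR4A3 (25.2, others 1.26 to 3.46) and 0.878 for STX11 (17.1, others 3.04 to 3.76) at 0 h, and among the markers of other cells 0.654 for LYZ, 0.754 for CLDN4, 0.635 and 0.687 for KRT14 at 4 h and 0 h, 0.84 for ERG and 0.693 for TEK.

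The 4 h change differed between the control siRNAs (Sigma-Aldrich minus Dharmacon, limma, adjusted p under 0.05) for EGR4 (-2.65), HEY1 (-1.56), NR4A2 (-1.14 and -0.93 by different probe sets), ABCG2 (-1.13), CHAC1 (-1.24), FST (-0.89), VEGFC (-0.73), ID4 (-0.59), CDKN1B (-0.56) and FGFR2 (0.47).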

How the results depend on the processing

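The counts of probe sets higher and lower at 4 h (3574 and 5166) stayed within 1.5 times under each alternative fit and scaling except the methods' t-test at its published threshold (2013 and 1536), which also asks for a minimum ratio. Median ratio scaling gave 4092 and 3960, so that the higher share was 50.8% instead of 40.9%. Leaving out arrays gave 3051 to 3533 and 3858 to 5099. The count for the difference between control siRNAs (131) was 44 with only the arrays compared, and 18 to 174 when replicates or arrays were left out, the lowest without replicate 2 (41 without replicate 1, 50 without replicate 3, 86 without Sigma-Aldrich control siRNA 4 h replicate 2). The count for the difference between NFYB and control siRNA cells (3) was 1 with an offset of 16, 10 with the replicate block within siRNA, 0 with only the arrays compared, 87 with siRNA by time as 12 groups, and 0 to 5 when replicates or arrays were left out (0 without replicate 2, 1 without replicate 1 or 3 or without any of 6 single arrays, 5 without Dharmacon control siRNA 0 h replicate 2). The cause was not tested. The labels do not say whether replicate numbers pair cultures. Same-numbered 4 h and 0 h arrays correlated in their deviations at -0.0625 to 0.129, and differently numbered ones at -0.124 to 0.0963. These ranges overlap, and deviations from means of 3 arrays cannot settle the pairing. The replicate block gave 3558 higher and 5128 lower, and 3771 and 5883 within siRNA, 161 and 128 for the control siRNAs and 2 for the arms. No named gene reversed, and 153 of 177 named probe sets kept their side of the threshold under every alternative that tested them. E2F1 (0.31 to 0.40) was called under 5 alternatives that left out no array, among them quantile normalization (adjusted p = 0.0247) and median ratio scaling (0.0146). Changes from 0 h signals near the floor have no firm size.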
